A study of Mus musculus with 23 samples.

Results

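The set holds 10 genes of the heat shock response of muscle, chosen by name: Hspa1a, Hspa1b, Hspa8, Hsp90aa1, Hsph1, Dnajb1, Hspb1, Hspb7, Cryab and Bag3. Of these 10, 9 had a probe that was matched by RefSeq accession and tested, among 23708 features in all. Hspa1b was not matched and has no value here. The 9 probes were well above background on all 23 arrays, and none of their spots was saturated.

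RNA came from gastrocnemius, a mostly fast-twitch calf muscle, of male C57BL/6J mice with no transgene or deletion named in the labels. Adult mice entered at 5 months and are labelled 6 months, and old mice entered at 24 months and are labelled 25 months. High-intensity intermittent training (HIIT) meant running at 27 m/min in 3 bouts that each took 2 min and were split by 1 min of slow recovery at a speed of 5 m/min. Moderate-intensity continuous training (MICT) meant 45 min without a break at 13 m/min, and both were done daily for 4 weeks. Sedentary controls of each age were put near a stopped treadmill, all mice lived singly, and muscle was taken after 12 h of rest. Each of the 6 groups has 4 arrays, except adult MICT with 3 (replicates 1, 3 and 4), and the study asked how adult and old muscle adapt to the regimens. The labels give mice as replicates but do not tie each array to an animal, so p-values measure the spread between these arrays.

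Heat shock proteins are chaperones that keep other proteins folded, and contracting muscle is known for making much of them. HSP70 proteins (Hspa1a, Hspa1b, Hspa8) bind unfolded stretches, J-domain proteins such as Dnajb1 start their ATP cycle, and the HSP110 protein Hsph1 and Bag3 act as nucleotide exchange factors that end it. HSP90 proteins (Hsp90aa1) fold late intermediates, and small heat shock proteins (Hspb1, Hspb7, Cryab) hold unfolding proteins without ATP and sit at the sarcomere and cytoskeleton. Bag3 also hands damaged sarcomere proteins to autophagy. Heat shock factors turn these genes on through heat shock elements, inverted repeats of the unit GAA.

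Promoter letters are shown for the genes that passed a test, Hsph1 and Bag3, for Hspb1, which was high on the same trained arrays as Bag3, and for the near-identical genes Hspa1a and Hspa1b. They come from RefSeq, build GRCm38.p6, which holds windows for 7 of the 10 genes, and the array was designed on mm9. Each is printed 5′ to 3′ up to the base before an annotated transcription start, and capitals mark a match to 2 inverted units (GAA, 2 bases of any kind and TTC, or TTC, 2 bases of any kind and GAA, read on both strands).
Hsph1, chr5:149636337-149636436, minus strand: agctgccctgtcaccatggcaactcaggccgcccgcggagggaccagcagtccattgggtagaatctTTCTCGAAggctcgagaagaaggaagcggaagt
Bag3, chr7:128523433-128523582, plus strand: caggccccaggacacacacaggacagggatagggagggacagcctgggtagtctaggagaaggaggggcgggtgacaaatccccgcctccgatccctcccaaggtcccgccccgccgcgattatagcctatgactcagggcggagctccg
Hspb1, chr5:135887769-135887918, plus strand: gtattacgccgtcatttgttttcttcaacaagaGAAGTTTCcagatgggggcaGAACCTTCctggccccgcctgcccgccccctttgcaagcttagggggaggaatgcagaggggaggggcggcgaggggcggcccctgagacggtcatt
Hspa1a, chr17:34972157-34972406, minus strand: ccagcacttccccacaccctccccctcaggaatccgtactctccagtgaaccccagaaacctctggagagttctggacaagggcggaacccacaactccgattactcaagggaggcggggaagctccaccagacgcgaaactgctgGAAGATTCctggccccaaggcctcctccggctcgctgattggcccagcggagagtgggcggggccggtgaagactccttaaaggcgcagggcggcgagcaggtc
Hspa1b, chr17:34959239-34959488, minus strand: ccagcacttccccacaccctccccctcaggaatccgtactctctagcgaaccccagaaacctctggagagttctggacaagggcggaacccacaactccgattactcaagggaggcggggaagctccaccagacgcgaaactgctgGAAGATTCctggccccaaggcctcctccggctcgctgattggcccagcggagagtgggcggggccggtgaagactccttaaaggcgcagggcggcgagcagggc

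The 2-unit motif stood in the windows of 5 of the 7 genes, from 250 bases before to 50 after the start: Hspa1a, Hspa1b, Hsph1, Hspb1 and Bag3. Over all promoters of that table, 17.0% of 27025 genes and 15.1% of 32851 windows held it. Bag3's match, GAAGTTTC, starts at base 43 after the start, outside the stretch printed above. A match to 3 inverted units, GAA, TTC and GAA or TTC, GAA and TTC with 2 bases of any kind between units, found in 0.662% of genes and 0.603% of windows, stood in Hsph1 alone of the 7. It reads TTCTGGAAAGTTC and starts at base 16 or 37 after the start, depending on which of its 2 annotated starts is taken, and it holds 2 of the shorter matches, which overlap. No match was found for Hspb7 and Dnajb1, which says only that these letters are not in their windows. Hspa1a and Hspa1b differ at 3 of the 250 bases printed, and their transcripts are near-identical too. Whether the Hspa1a probe also binds Hspa1b RNA was not tested, so its level is uncertain as a level of Hspa1a alone.

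Levels are log2 processed signals minus the array's 75th percentile, so 0 is that percentile and 1 unit is a doubling. Levels of different probes are not comparable, and in whole muscle fewer cells of a type and less RNA per cell cannot be told apart. The share of gene spots called above background ran from 47.2% to 58.9% across arrays. The 5 muscle fibre markers (Acta1, Ckm, Mb, Ttn, Des) were all above background on every array, as the tissue label would have it. Each group lay on a single slide: adult control and adult HIIT on slide 1, adult MICT and old control on slide 2, old HIIT and old MICT on slide 3. Only adult HIIT against adult control and old HIIT against old MICT can therefore be read within a slide. In the other comparisons slide and group cannot be told apart without assuming equal training effects at both ages.

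**Figure D1:**
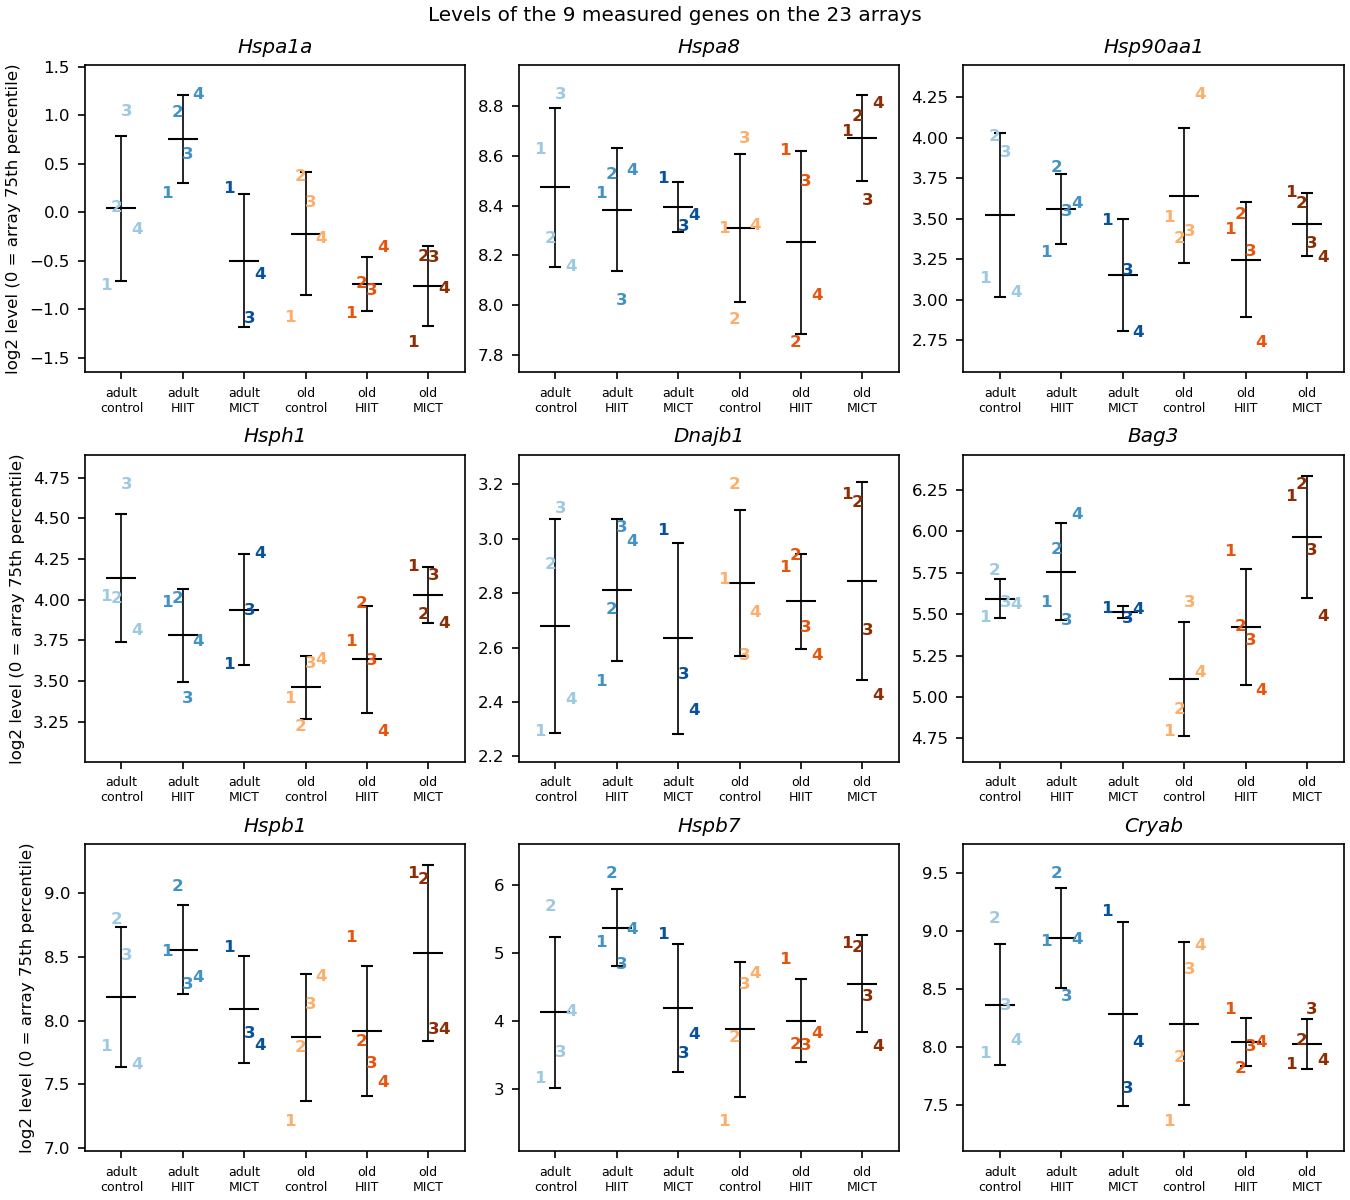
Log2 level of each of the 9 measured genes (y axis, 0 is the array's 75th percentile) in the 6 groups (x axis). Digits are arrays, by replicate number, and horizontal marks with bars are group means and SDs. Bag3 runs from 5.48 to 6.28 in old MICT and from 4.79 to 5.57 in old control, while Hspb7 spans 2.52 to 6.16 over all arrays.

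Of the differences that passed the test, the largest was that of Bag3 in old trained muscle. Bag3 was at 4.79, 4.92, 5.57 and 5.15 in old controls 1 to 4 and at 6.21, 6.28, 5.88 and 5.48 in old MICT 1 to 4. Old MICT 1 and 2 were the highest of all 23 arrays, and the groups overlapped only in that old control 3 lay above old MICT 4. Bag3 rose by 0.86 ± 0.19 log2 units with MICT in old mice (limma SE, n = 4 and 4), a fold of 1.81, with a 95% interval from 0.45 to 1.26 (limma adjusted p = 0.00604). In old HIIT it was at 5.88, 5.42, 5.34 and 5.04, with HIIT 1 above every old control. That difference was 0.31 ± 0.19 and did not pass (limma adjusted p = 0.433).

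In adult control and adult MICT, Bag3 varied little between arrays. It lay at 5.48, 5.76, 5.57 and 5.56 in adult controls, at 5.54, 5.47 and 5.53 in adult MICT 1, 3 and 4, and at 5.57, 5.89, 5.46 and 6.10 in adult HIIT. Adult HIIT 2 and 4 were above all adult controls, and adult MICT lay inside the range of the controls apart from replicate 3 at 5.47. The differences from adult control were -0.08 ± 0.21 with MICT and 0.16 ± 0.19 with HIIT. The MICT response was larger in old than in adult mice by 0.94 ± 0.29, which did not pass the test of the difference itself (limma adjusted p = 0.0924). Old HIIT against old MICT, within slide 3, gave -0.54 ± 0.19 (limma adjusted p = 0.211).

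By group mean, Bag3 ran from old MICT at 5.97 through adult HIIT at 5.76, adult control at 5.59, adult MICT at 5.51 and old HIIT at 5.42 to old control at 5.11. No neighbours in that order were farther apart than 0.31, and no gap exceeded the pooled SD of its groups. Old control was lower than adult control by 0.49 ± 0.19, which did not pass (limma adjusted p = 0.09). Old controls 1, 2 and 4 lay below every adult control, while old control 3 lay inside their range.

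Hsph1, the HSP110 exchange factor, was lower in old than in adult controls and higher in old MICT than in old control. Its level was 4.02, 4.01, 4.71 and 3.81 in adult controls and 3.39, 3.22, 3.60 and 3.63 in old controls, and the ranges did not overlap. It fell by 0.67 log2 units with age (SE 0.20, n = 4 and 4, limma adjusted p = 0.033), to 0.627 times the adult level. In old MICT it lay at 4.20, 3.91, 4.15 and 3.85, above all old controls. The rise was 0.57 ± 0.20, a fold of 1.48 (limma adjusted p = 0.037), and old MICT lay -0.11 ± 0.20 from adult control (limma adjusted p = 0.845).

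Hsph1 did not differ past the threshold elsewhere. Adult HIIT was at 3.98, 4.01, 3.39 and 3.74, a difference from adult control of -0.35 ± 0.20. Adult MICT was at 3.60, 3.93 and 4.28, and old HIIT at 3.74, 3.97, 3.63 and 3.19, each overlapping its control. The MICT response was larger in old mice by 0.77 ± 0.29 (limma adjusted p = 0.132). A second Hsph1 probe gave 0.58 ± 0.22 for old MICT (limma adjusted p over all probes = 0.0499) and -0.65 ± 0.22 for age (0.0507).

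These were the only members called in any of the 11 comparisons: 1 of 9 lower with age, 2 of 9 higher in old MICT and 0 of 9 in each of the other comparisons. Of all features, 9.07% were called lower with age and 21.2% were called higher in old MICT, so 1 and 2 of 9 are near the background. Called features split into 1085 higher and 2150 lower with age, and 1025 and 3933 with median scaling. In old MICT they split into 5025 and 2140, and 3035 and 2389 with quantile scaling. In the other comparisons, members with an unadjusted limma p under 0.05 numbered 0 for adult MICT and old HIIT, 1 for adult HIIT, adult HIIT against adult MICT, the HIIT response between ages and old MICT against adult control, and 2 for old HIIT against old MICT, the MICT response between ages and old HIIT against adult control. Hsph1 was the member whose control groups did not overlap, as for 11% of all features on the lower side with age, and likewise in old MICT, as for 16.5% on the higher side. Over the 9 genes the median difference was -0.25 with age, beside -0.15 over all features, and 0.36 in old MICT, beside 0.19. Over all features, 0.434% were called for old HIIT, 0.666% for the MICT response between ages, 0.451% for old MICT against adult control and 0.0169% for old HIIT against adult control. These comparisons had 3685, 6110, 4330 and 2956 features at an unadjusted limma p under 0.05. In the other comparisons 0% were called, with 1215 features at an unadjusted limma p under 0.05 for adult HIIT, 500 for adult MICT, 1821 for adult HIIT against adult MICT, 4045 for old HIIT against old MICT and 2698 for the HIIT response between ages.

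**Figure D2:**
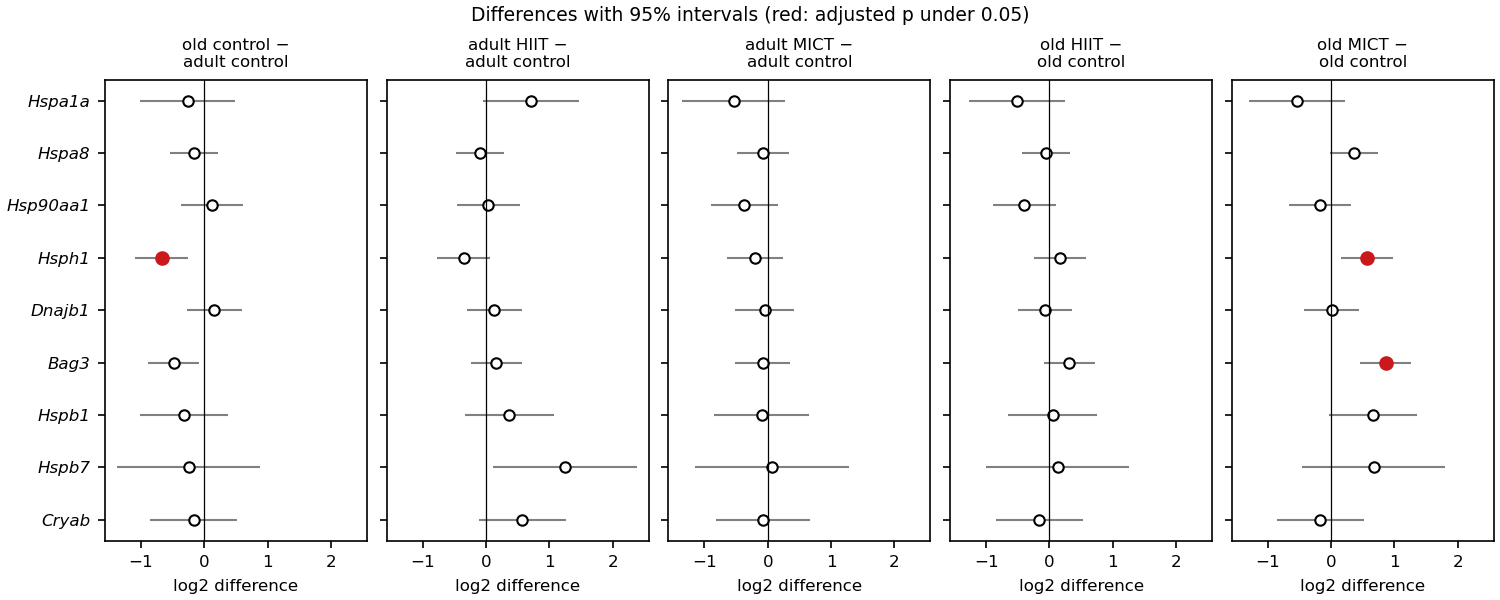
Log2 difference (x axis) of each of the 9 genes between the groups named above each panel, with its 95% interval from limma. Red points have an adjusted p under 0.05: Hsph1 at -0.67 with age and 0.57 in old MICT, and Bag3 at 0.86 in old MICT.

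Bag3 in old MICT stayed called with each of the 23 arrays left out in turn (0.75 to 1.02). Hsph1 stayed called in 18 of 23 such fits for old MICT and in 19 of 23 for age. With pairs of arrays left out, the old MICT calls were lost. Whether smaller groups alone would do this was not tested. Without old controls 1 and 2, Bag3 in old MICT was at 0.61 (adjusted p = 0.119) and Hsph1 at 0.41 (0.303). Without old MICT 1 and 2, a set chosen after the values were seen, they were at 0.58 (0.126) and 0.54 (0.178). A model with slide, age and training as terms assumed equal training effects at both ages, so it has a single MICT value for adult and old mice. That value came from adult HIIT against adult control and old MICT against old HIIT, without any old control array. It is therefore not the old MICT difference corrected for slide. It was 0.71 for Bag3 (0.729) and 0.04 for Hsph1 (0.981), and the age value for Hsph1 was -0.43 (0.705). The model called 0 of 23708 features for age or for MICT, with 2109 at an unadjusted p under 0.05 for age and 1546 for MICT. Quantile scaling moved the median of all features in old MICT from 0.19 to 0.06, and Bag3 was then at 0.55 (0.0191) and Hsph1 at 0.31 (0.207).

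Transcripts of other cells moved with the same contrasts. Beside the counts that follow, 4.58% of all features were called higher with age and 9.03% lower in old MICT. Of the B and plasma cell markers, 4 of 5 were called higher with age and 4 of 5 lower in old MICT. Their summed linear level was 0.300 to 0.480 in adult controls, 1.35 to 30.0 in old controls and 0.255 to 0.488 in old MICT. Cd79a, which defines B cells, was above background on 0 of 4 adult controls, 2 of 4 old controls and 0 of 4 old MICT arrays. Ms4a1 and Spib were above background on 0 of 4 adult controls and 4 of 4 old controls. On old MICT arrays Ms4a1 was so on 1 of 4 and Spib on 0 of 4. Cd79a, Ms4a1 and Spib passed the filter of 3 arrays through old mice alone, so a call for them is partly built in. Of the T and NK cell markers, 3 of 5 were called higher with age and 3 of 5 lower in old MICT, with sums of 3.01 to 4.15 in adult controls, 2.81 to 10.3 in old controls and 2.94 to 3.99 in old MICT. Among them, Cd3g was above background on 1 of 4 adult controls, 4 of 4 old controls and 0 of 4 old MICT arrays, and Gzmb on 0, 4 and 0 of 4. Gzmb too passed the filter through old mice alone. Of the macrophage markers, 0 of 4 measured were called with age and 3 of 4 were called lower in old MICT, with sums of 64.8 to 96.3 in old controls and 51.1 to 69.3 in old MICT. Of the adipocyte markers, 3 of 4 were called higher with age, and their sum was 29.9 to 59.2 in adult controls and 52.6 to 489 in old controls. Of the 5 muscle fibre markers, Ckm and Des were called lower with age, by -0.78 and -0.50 (limma adjusted p = 0.0292 and 0.0275). Both were called higher in old MICT, by 0.78 and 0.54 (limma adjusted p = 0.016 and 0.0099). Acta1, Mb and Ttn were called in neither, beside 9.07% of all features called lower with age and 21.2% higher in old MICT. Old controls 1 and 2, where Bag3 and Hsph1 were lowest among old controls, had muscle fibre scores of -0.64 and -0.65, against 0.29 and -0.28 for old controls 3 and 4. The part of cell composition in the results was not tested.

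Among old trained mice, Bag3 and Hspb1 were highest on the arrays where a list of 8 training-responsive genes was highest. That list (Pdk4, Ddit4, Fbxo32, Trim63, Cebpd, Per1, Klf15, Fkbp5) was picked from earlier results of these arrays and is no independent evidence. Its score, the median deviation of its genes from adult control, was 3.51 and 3.22 in old MICT 1 and 2 and 0.78 and 1.00 in old MICT 3 and 4. In old HIIT 1 to 4 it was 2.84, 1.67, 0.17 and -0.38, and in the other arrays it lay between -0.26 and 0.78. Hspb1, a small heat shock protein that protects actin, was at 9.15, 9.10, 7.93 and 7.93 in old MICT and at 8.65, 7.84, 7.67 and 7.51 in old HIIT. So in old trained mice the highest Hspb1 and Bag3 levels were those of old MICT 1 and 2, and within old HIIT those of replicate 1, with replicate 4 lowest. Some adult arrays, with scores between -0.26 and 0.78, lay above old HIIT 1 but below old MICT 1 and 2. For Hspb1 these were adult control 2 at 8.79 and adult HIIT 2 at 9.05. For Bag3 they were adult HIIT 2 and 4 at 5.89 and 6.10.

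**Figure D3:**
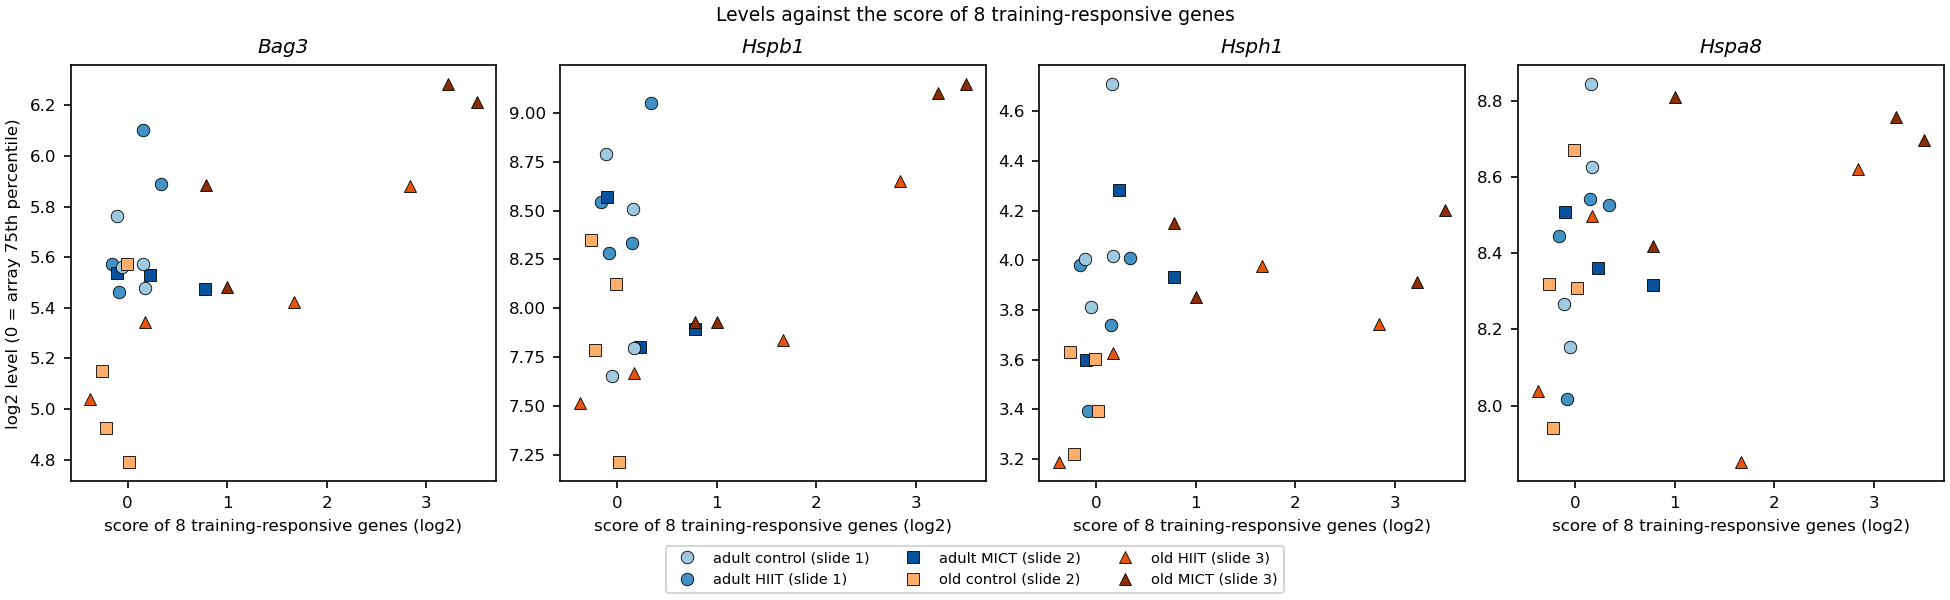
Log2 level of Bag3, Hspb1, Hsph1 and Hspa8 (y axis, 0 is the array's 75th percentile) against the score of 8 training-responsive genes (x axis, log2 deviation from adult control). Points are arrays, coloured by group and shaped by slide. Old MICT 1 and 2 (scores 3.51 and 3.22) and old HIIT 1 (2.84) lie apart from the other arrays, and the first pair has the highest Bag3 and Hspb1.

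Hspb1 did not pass in any comparison. In old controls it was at 7.21, 7.79, 8.12 and 8.35, and the old MICT difference was 0.66 ± 0.34 (limma adjusted p = 0.134), with old MICT 3 and 4 inside the control range. In adult controls it was at 7.80, 8.79, 8.51 and 7.65, in adult HIIT at 8.54, 9.05, 8.28 and 8.34, and in adult MICT at 8.57, 7.89 and 7.80. All these ranges overlap, and the gaps between neighbouring group means were at most 0.34.

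Hspb7, the cardiovascular small heat shock protein of the sarcomere, varied most of the set. Adult controls were at 3.15, 5.68, 3.52 and 4.13, and adult HIIT at 5.14, 6.16, 4.83 and 5.34. Each adult HIIT array was above 3 of the 4 controls, and adult control 2 was above all adult HIIT arrays but replicate 2. The difference of 1.25 ± 0.54, within slide 1, had an unadjusted limma p of 0.0324 and did not pass over all features (adjusted p = 0.914).

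The other groups of Hspb7 overlapped as widely. Adult MICT was at 5.26, 3.51 and 3.79, old control at 2.52, 3.75, 4.53 and 4.70, old HIIT at 4.91, 3.65, 3.64 and 3.81, and old MICT at 5.13, 5.08, 4.35 and 3.61. SDs within a group ran from 0.57 in adult HIIT to 1.11 in adult control. The first old HIIT array and the first and second old MICT arrays were again the highest of the trained old mice.

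Cryab, or alpha B-crystallin, which binds desmin and titin, was highest on average in adult HIIT. Its levels were 8.91, 9.50, 8.43 and 8.93 there, 7.95, 9.11, 8.36 and 8.05 in adult control, and 9.17, 7.64 and 8.04 in adult MICT. Old controls were at 7.36, 7.91, 8.67 and 8.88, old HIIT at 8.32, 7.82, 8.01 and 8.04, and old MICT at 7.85, 8.06, 8.33 and 7.89. The adult HIIT difference was 0.57 ± 0.33 (limma adjusted p = 0.914), and unlike Hspb1 and Hspb7, Cryab was not raised on old MICT 1 and 2. A second Cryab probe gave 0.81 ± 0.40 for adult HIIT.

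Hspa1a, the stress-inducible HSP70, was low and also varied widely. Adult HIIT was at 0.20, 1.03, 0.59 and 1.21 and adult control at -0.75, 0.05, 1.04 and -0.17, which overlapped, a difference of 0.71 ± 0.36 (limma adjusted p = 0.914). Adult MICT was at 0.25, -1.10 and -0.64, and adult HIIT lay 1.25 ± 0.39 above it (limma adjusted p = 0.481), across slides. Old control was at -1.09, 0.37, 0.10 and -0.27, old HIIT at -1.04, -0.74, -0.81 and -0.37, and old MICT at -1.34, -0.46, -0.47 and -0.78. All 8 arrays of trained old mice, on slide 3, were below 0, and all 4 of adult HIIT, on slide 1, were above it. Adult controls 1 and 4, adult MICT 3 and 4 and old controls 1 and 4 were below 0 as well. That cut is only the percentile subtracted from each array. The share of all features that split these groups in this way was not computed, and slide cannot be told apart from group in this split. The HIIT response differed between ages by -1.23 ± 0.51, which did not pass (limma adjusted p = 0.421).

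Levels of the members were set beside those of slow-twitch fibre genes. The slow-twitch score (Myh7, Tnni1, Tnnt1, Tnnc1, Myl2, Myl3 and Atp2a2) was -0.56, 2.06, 1.20 and 2.07 in adult HIIT and -0.98, 1.38, -0.46 and -0.01 in adult control. It was 1.08, -2.19 and -1.72 in adult MICT, where replicate 1 was also the highest for Hspa1a, Hspb1, Hspb7 and Cryab. None of its 7 genes was called by limma in these comparisons with a control, but there 0 of all 23708 features were called. Their adult HIIT differences ran from 0.86 (Myl3) to 1.79 (Tnni1). The part of fibre type in the adult HIIT differences was not tested.

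Over 23 arrays, the relation of each of the 9 genes to that score was computed, with 100000 permutations. For Hspa1a Pearson's r was 0.68 (permutation p = 0.0004, adjusted over the 9 relations 0.00284) and Spearman's rho 0.68 (permutation p = 0.00056, adjusted 0.00504). Cryab gave r = 0.66 (permutation p = 0.00063, adjusted 0.00284) and rho = 0.57 (permutation p = 0.00555, adjusted 0.025). Hspb7 gave r = 0.54 (permutation p = 0.00844, adjusted 0.0253) and rho = 0.49 (permutation p = 0.019, adjusted 0.057). The other 6 genes had r from -0.29 to 0.28, with adjusted permutation p-values of 0.344 or more. These permutations took all arrays as exchangeable across groups and slides, so their p-values also rest on differences between slides. With slide means taken out and arrays permuted within slides, an alternative added after the data were seen, none of the 9 relations passed after adjustment over them. Hspa1a then had r = 0.58 (permutation p = 0.0103, adjusted 0.0627), Cryab 0.57 (permutation p = 0.0149, adjusted 0.0627), Hsph1 -0.50 (permutation p = 0.0209, adjusted 0.0627) and Hspb7 0.47 (permutation p = 0.0359, adjusted 0.0808).

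Within single slides, r was above 0 on slides 1 and 2 and below 0 on slide 3 for Hspa1a, Cryab and Hspb7, and also for Bag3, Hspb1, Hsp90aa1 and Dnajb1. For Hspa1a r was 0.62, 0.83 and -0.05 on slides 1, 2 and 3, for Cryab 0.72, 0.76 and -0.57, and for Hspb7 0.82, 0.72 and -0.57, over 8, 7 and 8 arrays. For Bag3 it was 0.77, 0.28 and -0.74, for Hspb1 0.55, 0.60 and -0.46, for Hsp90aa1 0.55, 0.29 and -0.49, and for Dnajb1 0.55, 0.39 and -0.24. Without adult HIIT 2 and 4, whose scores were farthest from the median, r over the other arrays was 0.53 for Hspa1a, 0.53 for Cryab and 0.37 for Hspb7. On slide 3, which holds all old trained mice, the highest Hspb7 and Hspb1 levels fell on arrays with slow-twitch scores of -0.85, -1.43 and -1.03.

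**Figure D4:**
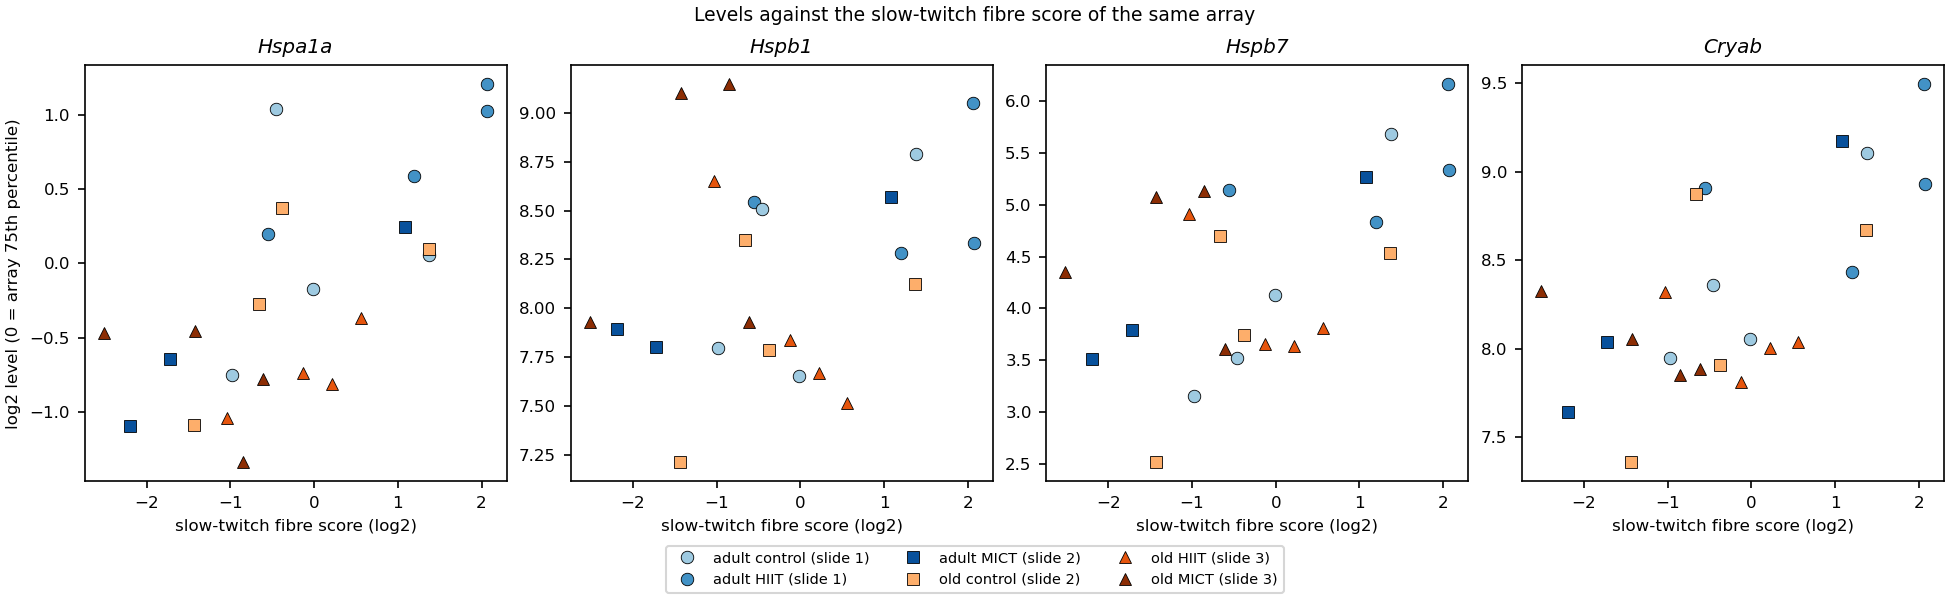
Log2 level of Hspa1a, Hspb1, Hspb7 and Cryab (y axis, 0 is the array's 75th percentile) against the slow-twitch fibre score of the same array (x axis, log2 deviation from adult control). Points are arrays, coloured by group and shaped by slide. Circles and squares (slides 1 and 2) climb with the score, with r of 0.72 and 0.76 for Cryab, and triangles (slide 3) do not, with r of -0.57.

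Hspa8, the constitutive HSP70, was bright and steady. It was at 8.63, 8.27, 8.84 and 8.15 in adult control, 8.45, 8.53, 8.02 and 8.54 in adult HIIT, and 8.51, 8.32 and 8.36 in adult MICT. Old control was at 8.31, 7.94, 8.67 and 8.32, old HIIT at 8.62, 7.85, 8.50 and 8.04, and old MICT at 8.70, 8.76, 8.42 and 8.81. Old MICT had the highest mean, 0.36 ± 0.18 above old control, with old control 3 inside its range (limma adjusted p = 0.131).

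The 3 Hspa8 probes did not give the same call in that comparison. The other probes gave 0.69 ± 0.18 (limma adjusted p over all probes = 0.0101) and 0.44 ± 0.14 (0.0257) for old MICT. The mean over its probes gave 0.50 ± 0.15 (limma adjusted p = 0.0216), so the direction was shared and the call depends on the probe.

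Hsp90aa1, the inducible HSP90, and Dnajb1, the J-domain partner of inducible HSP70, showed no called difference. Hsp90aa1 was at 3.13, 4.01, 3.91 and 3.05 in adult control, 3.29, 3.82, 3.54 and 3.60 in adult HIIT, and 3.49, 3.18 and 2.80 in adult MICT. It was at 3.51, 3.38, 3.42 and 4.26 in old control, where replicate 4 stood apart, 3.44, 3.52, 3.30 and 2.74 in old HIIT, and 3.66, 3.59, 3.35 and 3.26 in old MICT. Dnajb1 spanned 2.29 to 3.20 over all arrays, and its group means lay between 2.63 in adult MICT and 2.84 in old MICT. Its difference in old MICT was 0.01 ± 0.21, with a 95% interval from -0.42 to 0.44.

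In the comparison of old control with adult control, Hsph1 passed and the other 8 genes had differences from -0.49 (Bag3) to 0.16 (Dnajb1). With MICT in adult mice the 9 differences ran from -0.54 (Hspa1a) to 0.07 (Hspb7). With HIIT in old mice they ran from -0.52 (Hspa1a) to 0.31 (Bag3). Intervals for Hspb7 reached past 1 log2 unit in size in each of these comparisons, so its precision is low.

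Other chaperone genes were read as 8 lists, with 56 of 58 genes measured. In old MICT, 25 of 56 were called higher and 0 lower, beside 21.2% and 9.03% of all features, and their median was 0.32 beside 0.19. The lists with called members were J-domain proteins (5 of 9), chaperonins (5 of 9), co-chaperones (6 of 14), other HSP70, HSP90 and HSP110 (4 of 11), myosin chaperones (2 of 2), partners of Bag3 in autophagy (2 of 4) and heat shock factors (1 of 3). The other small heat shock proteins (Hspb2, Hspb3, Hspb6, Hspb8) had 0 of 4 called. By limma the count of 25 was 0 without old controls 1 and 2, 0 without old MICT 1 and 2, and 0 with slide in the model, where 13, 21 and 5 were higher at an unadjusted p under 0.05. The median of these genes was then 0.18, 0.30 and 0.27, the last for the MICT value shared by both ages. Whether the counts fell more than over all features was not tested.

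Of the 4 listed partners of Bag3 in autophagy, 2 rose. Sqstm1, the p62 receptor that binds ubiquitinated cargo, rose by 1.24 ± 0.25 (limma adjusted p = 0.00392), and Map1lc3b, the LC3 protein of the autophagosome, by 1.25 ± 0.28 (0.00631). Neither overlapped between old MICT and old control, as for 16.5% of all features on the higher side. SDs were 0.54 and 0.66 in old MICT against 0.24 and 0.09 in old control. Flnc, the filamin that Bag3 clears, gave 0.50 ± 0.30 and Synpo2 gave -0.33 ± 0.32, and these did not pass.

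Of the J-domain proteins, 5 of 9 rose. Dnajb6, a J-domain protein of the Z-disc, rose by 0.78 ± 0.17 (limma adjusted p = 0.00491) and Dnaja2 by 0.71 ± 0.14 (0.00395). Of the other HSP70, HSP90 and HSP110 genes, 4 of 11 rose. Hspa4, an HSP110 relative of Hsph1, rose by 0.77 ± 0.20 (0.0109), the mitochondrial HSP90 Trap1 by 0.80 ± 0.17 (0.0049) and the constitutive HSP90 Hsp90ab1 by 0.50 ± 0.13 (0.00895). Of the chaperonin ring that folds actin and tubulin, Cct4 rose by 0.50 ± 0.11 (0.00599) and Cct2 by 0.48 ± 0.13 (0.012).

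**Figure D5:**
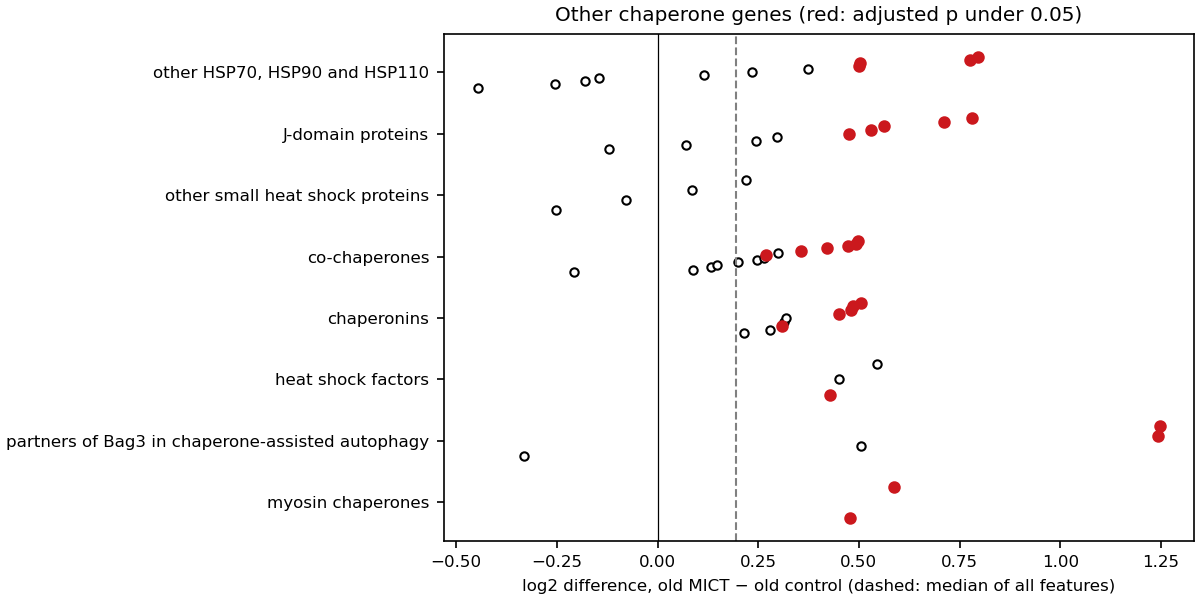
Log2 difference between old MICT and old control (x axis) of the 56 other chaperone genes, by list (y axis), with red points at an adjusted p under 0.05. The dashed line is the median of all features, 0.19, and the 25 called genes all lie above it.

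With age, 9 of the 56 were called lower and 0 higher, beside 9.07% and 4.58% of all features. The myosin chaperones Unc45b and Smyd1 fell by 0.86 and 0.60 (SE 0.20 and 0.17, limma adjusted p = 0.0147 and 0.03). Hsf1, the main heat shock factor, fell by 0.60 (SE 0.15, limma adjusted p = 0.021), from 2.99 ± 0.23 (SD, n = 4) to 2.40 ± 0.16 (SD, n = 4). Its groups did not overlap, as for 11% of all features on the lower side. Hspa1l fell by 0.82 (SE 0.22, 0.0236), and Trap1 by 0.59 (SE 0.17, 0.0293), Hsp90ab1 by 0.42 (SE 0.13, 0.0349), Stip1 by 0.46 (SE 0.14, 0.0327), Bag1 by 0.34 (SE 0.09, 0.027) and Fkbp4 by 0.54 (SE 0.18, 0.0491). Hspa1l lies beside Hspa1a and Hspa1b in the genome and is similar to them in sequence, so shared binding was not tested for it either. The count of 9 was 0 without old controls 1 and 2, 0 without old control 2 alone, 0 without adult control 3, 0 with slide in the model, 1 without adult control 1 or old control 1 and 3 without adult control 4. Lower at an unadjusted limma p under 0.05 were 3 genes without old controls 1 and 2, 14 without old control 2, 18 without adult control 3 and 0 with slide in the model. The median of the 56 genes was then -0.07, -0.21, -0.27 and 0.04, beside -0.27 as reported. Whether the counts with age fell more than over all features was not tested. Age and old MICT share the old controls, so their values are not independent.

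Genes of like pattern were found by Pearson's r over the 23 arrays with the mean of the centred members. For the 6 measured members that are not small heat shock proteins, the constitutive Hspa8 among them, these were Ccn1 (r = 0.82), Abra (0.79), Otulin (0.78), Dnajb4 (0.77) and 2900079G21Rik (0.77). For the small heat shock proteins (3 measured), these were Ankrd2 (r = 0.96), Flnc (0.92), Aopep (0.91), Fgf1 (0.90) and Ankrd1 (0.88). These r values describe the 5 highest of all named features in each case and carry no test.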

How the data were processed

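Per the file headers, Agilent Feature Extraction 12.0.3.1 made the deposited intensity values of 1-colour arrays designed on mm9. Per the same headers, the processed intensity had its background subtracted array by array, with no scaling across arrays. A deposited score per spot, whose making is not stated, followed the log10 signal with r of at least 0.99954 and was used as an alternative only.

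Here, control spots and outlier spots were left out, the deposited intensity was turned into log2 values, each array's 75th percentile was subtracted, and a probe well above background on at least 3 arrays was tested. Accessions were matched to RefSeq names of GRCm38.p6 (28331 of 29786 RefSeq probes), and the brightest probe stood for a gene, or for an accession where no symbol matched. limma 3.58.1 in R 4.3.3 (version 1.17.8 of data.table) fitted 6 group means to 23 arrays with an intensity trend and 2-sided tests, adjusted by Benjamini-Hochberg over 23708 features in each of 11 comparisons, and called at 0.05. Values after ± are SEs unless called SDs. A list's score is the median, over its genes, of an array's log2 level minus the mean level of adult controls. Permutations used SciPy 1.17.1 in Python 3.11.15. On simulated data for old MICT against old control, over 23708 features, 52% of 100 genes changed by 1 log2 unit and 79% of 100 changed by 2 were recovered, with 5 false calls. All other simulated features were unchanged with independent noise, whereas 7165 features were called in the real comparison. The adjustment is stricter when fewer features change, so these rates are not the power of that comparison.

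All members are named. Of other chaperones at most the 5 called genes with the smallest p per list and comparison are named, beside the uncalled Bag3 partners. The members and lists were chosen with earlier results of these data known. Alternatives were another background correction, quantile and median scaling, other filters, the mean over probes, no intensity trend, array weights, the compared groups alone, a replicate block, a model with slide, the deposited scores, and arrays left out.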

Additional observations from a re-analysis of the deposited data

Results flagged for a closer look

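Hsp90aa1 in old control 4 was at 4.26, far from the other old controls at 3.38 to 3.51. Hspb7 in old HIIT 1 was at 4.91, far from the other old HIIT arrays at 3.64 to 3.81. These are 2 of 45 sets of 1 gene in 1 group examined for an outlying array, and chance gives about 1 in 20. The HIIT response of Hspa1a was 0.71 in adult mice and -0.52 in old mice, a difference between ages of -1.23 that did not pass the test of the difference (limma adjusted p = 0.421). The MICT response of Bag3 was -0.08 in adult and 0.86 in old mice, a difference of 0.94 (limma adjusted p = 0.0924).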

How the results depend on the processing

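For old control against adult control, the count of members called, 1 in the analysis as reported, was 0 with normexp, quantile scaling, the compared groups alone, slide in the model, or no old controls 1 and 2, and 2 (Hsph1 and Bag3) with median scaling or array weights. Leaving out each array gave 0 to 2: 0 without adult control 1 or 3 or old control 1 or 2, and 2 without old control 3. For old MICT against old control, 2 as reported, it was 1 (Bag3) with normexp, quantile scaling, no filter or array weights, 3 (Bag3, Hsph1 and Hspa8) with the mean over a gene's probes, and 0 with the compared groups alone, slide in the model, no old controls 1 and 2, or no old MICT 1 and 2 (added after the data were seen). Leaving out each array gave 1 to 2, with Bag3 called each time. Array weights called 1 member (Hspb7, 1.80) for adult HIIT against adult control, 5 (Hspa1a, Hsp90aa1, Hspb1, Hspb7, Cryab) for adult HIIT against adult MICT, and 1 (Bag3) for the difference between ages in the MICT response, beside 1.05%, 13.8% and 10.4% of all features. For that last difference, leaving out each array gave 0 to 1. Bag3 with age was 0.30 with slide in the model (limma adjusted p = 0.793), against -0.49 in the analysis as reported. The model builds its age value from old control against adult MICT plus its MICT value, assuming equal training effects at both ages. These are therefore different contrasts, and the part of slide itself was not tested. No called value changed sign. Other counts stayed at 0.

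Replicate numbers did not pair arrays (correlations of -0.44 to 0.40 over 55 same-number pairs, and 7 of 23 arrays closest to their own number), and the replicate block left the counts at 1 with age and 2 in old MICT. The count of other chaperones in old MICT, 25 higher and 0 lower, was 8 higher and 1 lower with quantile scaling, where 12.8% of all features were called higher, so 8 of 56 is near the background. In the higher direction it was 16 with normexp (12.1% of all features), 6 with the deposited scores (9.54%, again near it) and 12 to 28 leaving out each array. With age, 9 lower became 16 with median scaling (16.6% of all features), 19 with array weights (22%), 5 with quantile scaling (7.55%), 1 with the deposited scores (6.89%), 0 with the compared groups alone and 0 to 18 leaving out each array. The number of arrays and, for Hspb7, Cryab and Hspa1a, their spread limit the precision.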
